A study of Homo sapiens with 12 samples.

Results

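The expression of 42 genes of autophagy and the lysosome was followed in Hs578T cells, a triple-negative breast cancer (TNBC) line with mesenchymal features. The genes were taken by symbol from a list of autophagy machinery, cargo receptors, lysosomal proteins and their transcription factors, and all 42 were found among the 55765 symbols in the deposited counts. Of these, 24 belong to autophagy, 15 to the lysosome and 3 are transcription factors of the MiT family. The study asked how withdrawal of cystine (Cyss), the oxidized dimer of cysteine, and exogenous NRF2, the transcription factor of the antioxidant response, act on these cells.

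RNA was sequenced from 4 groups of 3 libraries each: GFP cells with Cyss, GFP cells without Cyss, NRF2 cells with Cyss and NRF2 cells without Cyss. All cells had been transduced with lentiviral vectors, either for GFP as a control or for full-length human NRF2, so every group carried a transgene, and the counts of NRF2 cells do not separate the exogenous from the cells' own NRF2 mRNA. The medium of all groups lacked cystine as supplied and was given methionine, glutamine and serum, and 0.8 mM l-cystine was added back to the groups with Cyss. Cyss was withheld for 8 h, and the serum may have brought some cystine with it. The labels do not say that replicates were separate cultures or transductions, so the p-values below measure the spread between these libraries, which may be technical. Gene counts summed to between 27250993 and 44596870 reads per library, and the 42 genes together held between 0.496 and 0.554% of them. NFE2L2, the gene of NRF2, had a log2 fold change (log2FC) of 0.84 in NRF2 against GFP cells with Cyss and 0.79 without, and every library of NRF2 cells lay above every library of GFP cells. The sample labels call the line epithelial, but all 10 mesenchymal markers examined had at least 10 normalized counts in every library, against 2 of 11 epithelial markers. In normalized counts, the epithelial markers summed to between 1143 and 1280.4 in GFP cells with Cyss and between 1363 and 1708 in those without, and in NRF2 cells to between 952 and 1064 and between 1332 and 1612. Of 7 macrophage markers, 3 had at least 10 normalized counts in every library and TYROBP was at 0 in all of them. The part of these markers in the results was not tested. The library NRF2 without Cyss replicate 1 had the largest share of reads outside genes, 7.84% against 5.82% at the lowest, and is named below where it sets a value.

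Macroautophagy wraps cytoplasmic cargo in a double membrane, the autophagosome, which fuses with the lysosome for digestion. The ULK1 and Beclin 1 complexes start the membrane, PI3P-binding WIPI proteins and the lipid transporters ATG2 and ATG9 extend it, and the ATG conjugation enzymes attach proteins of the LC3 and GABARAP families to it, which the cargo receptors bind. Amino acid shortage acts on this pathway first through mTORC1 and protein phosphorylation, and over hours through transcription factors such as TFEB and TFE3, which bind an E-box type motif near many lysosomal genes. The lysosome also returns cystine from digested protein to the cytosol through the transporter cystinosin, the product of CTNS, and the receptor p62 (SQSTM1) both sequesters the NRF2 inhibitor KEAP1 and is itself transcribed under NRF2.

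To show which of the genes hold that E-box type motif close to their start, promoters of 300 bases (250 before to 50 after the start site) were taken from RefSeq on GRCh38.p14. An entry was found for 37 of the 42 genes, with 50 promoters in all. LAMP2, CTSB, HEXA, ATP6V1A and ATP6V1H had none. The letters TCACGTG, on either strand, were present in 7 of the 37 genes (18.9%), against 1226 of all 27305 genes in the table (4.49%). Of the lysosomal genes 5 of 10 held it, of the autophagy genes 2 of 24, and of the transcription factors 0 of 3. A site of each of the 7 genes is printed below in the gene's own direction, with the motif in capitals. It reads TCACGTG, or CACGTGA where it lies on the other strand.
LAMP1 (chr13:113297200-113297226, plus strand): acccgcgggaTCACGTGacgcccgggc
MCOLN1 (chr19:7522572-7522598, plus strand): ccagaggcggTCACGTGaggggctctg
CTSA (chr20:45891299-45891325, plus strand): gcgccggagtTCACGTGactcgtacac
CTSD (chr11:1763958-1763984, minus strand): cggccgcgccCACGTGAccggtccggg
ATP6V0D1 (chr16:67481201-67481227, minus strand): ccccttatggTCACGTGaggcgcttgc
ATG14 (chr14:55411835-55411861, minus strand): aacaaaatccCACGTGActggctctcc
ATG3 (chr3:112561965-112561991, minus strand): ctttctcacgTCACGTGccgggagagt
LAMP1, a heavily glycosylated protein of the lysosomal membrane, had sites that began at 193, 177, 160, 143, 29 and 2 bases before the start, and MCOLN1, the calcium channel TRPML1, had a pair at 42 and 15 bases before it. The distances count from the first base of the motif to the start site.

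The letters TGACNNNGC, the core of the antioxidant response element that NRF2 binds, are short and were found in 4384 of the 27305 genes (16.1%). They were present in 9 of the 37 genes (24.3%), namely 7 of 10 lysosomal genes and 2 of 24 autophagy genes. SQSTM1 was not among the 9, so these letters do not lie within this window of its promoter. The 6 sites of the 5 genes among them that passed an adjusted p under 0.1 in at least 1 comparison below are shown with the match in capitals, which reads as the reverse complement where it lies on the other strand.
MAP1LC3B (chr16:87392280-87392308, plus strand): gcgagtcaccTGACCAGGCtgcgggctga
CALCOCO2 (chr17:48830896-48830924, plus strand): cgctcctgggGCCCGGTCAcctgaacact
GLA (chrX:101407890-101407918, minus strand): ccggtcaccgTGACAATGCagctgaggaa
CTSD (chr11:1764104-1764132, minus strand): tgggccgggcTGACCCCGCgggcgcgagc
CTSD (chr11:1763905-1763933, minus strand): cggcccaactGCGGCGTCAtcccggctat
NPC2 (chr14:74493352-74493380, minus strand): acaggtcgccTGACTGGGCtcctccccgg
TGATGNAA, the type bound by ATF4 with its partners, was in none of the 37 genes and in 4.46% of all genes. The plot of motif positions shows that the E-box type sites of the 7 genes lie mostly within 60 bases of the start, with the upstream row in LAMP1 as the exception. In LAMP1 the first of them overlaps an NRF2 type match.

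**Figure D1:**
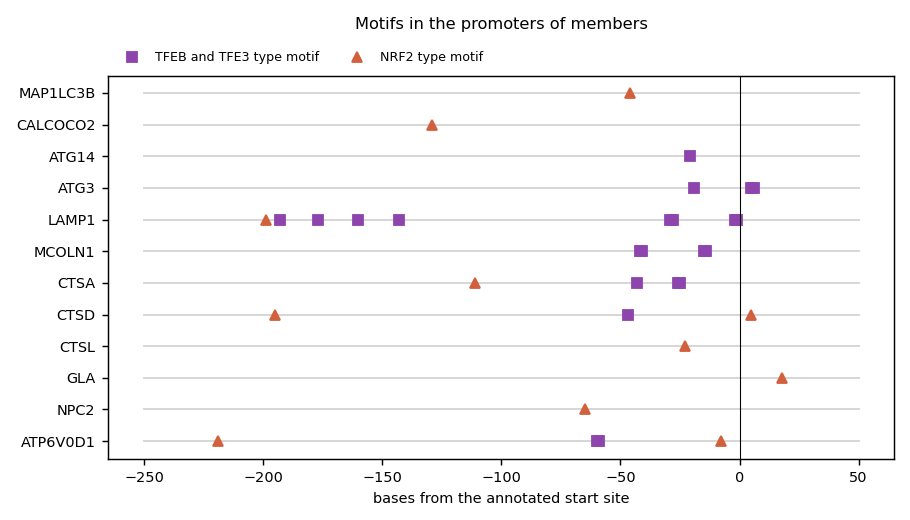
Positions of the motifs in the promoters of the 12 genes that held either of them, in bases from the annotated start site on the x axis; squares mark the TFEB and TFE3 type, triangles the NRF2 type, and grey lines the 300 bases searched. LAMP1 holds the most squares, with the farthest 193 bases before the start.

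Compared per exon length, the 42 genes spanned a wide range of levels. On the RPKM scale, in which reads are divided by exon length and library size, the lysosomal protease cathepsin B (CTSB) had the highest level, with 169 to 214 over the 12 libraries and a median of 184.7. LAMP1 followed with 47.8 to 52.2, then NPC2, which carries cholesterol in the lysosomal lumen, with 31.2 to 42, the receptor SQSTM1 with 30.8 to 42.7, and cathepsin L (CTSL) with 29.9 to 38.9. The ranges of NPC2, SQSTM1 and CTSL overlapped, so their order is not resolved. The lowest values of CTSB, NPC2 and CTSL were those of NRF2 without Cyss replicate 1.
Among the LC3 and GABARAP proteins, MAP1LC3B had a median of 22.7 RPKM, GABARAP 16.6 and GABARAPL2 10.98, whereas GABARAPL1 had between 0 and 11 reads in any library and was left out of all tests, since its mean normalized count was under 10 in every group. Of the MiT factors, TFE3 had a median of 12.9 RPKM, MITF 1.24 and TFEB 0.69, so that TFE3 was the most abundant of the 3 by this measure and TFEB the lowest of all genes tested here. Exon lengths were taken from GENCODE 44 and include exons of all transcripts of a gene, so the level of a gene with long rare exons may be understated. HEXA, at a median of 2.41, had the lowest level of the lysosomal genes on this scale.

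**Figure D2:**
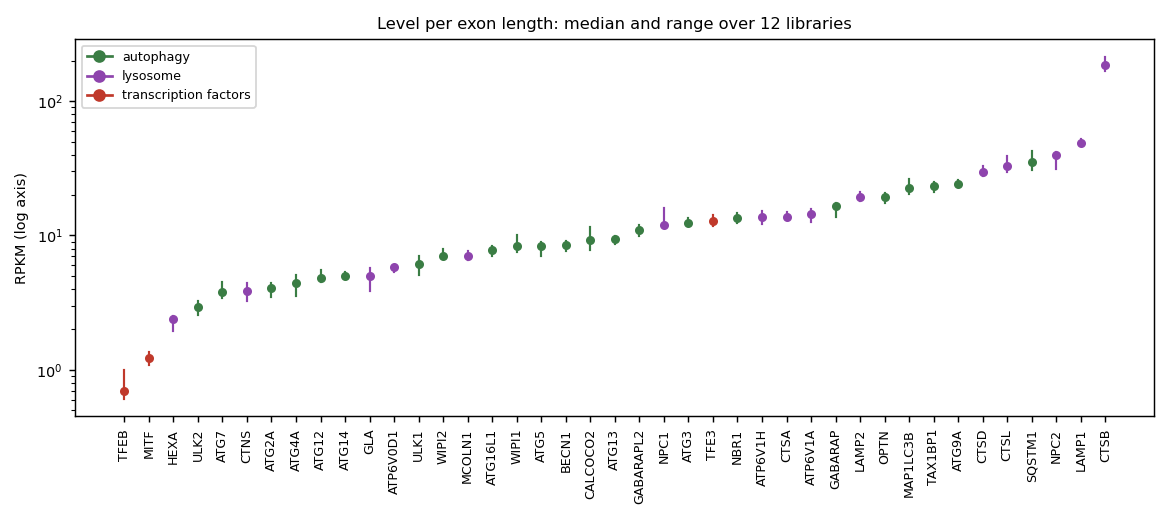
RPKM on a log axis for the 41 genes tested, in order of their median; points are medians and lines the range over the 12 libraries, coloured by class. CTSB stands highest at a median of 184.7 and TFEB lowest at 0.69.

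The response of GFP cells to 8 h without Cyss addressed which of these mRNAs move when cystine is withdrawn. TFEB, a master regulator of lysosomal genes, was the single gene of the 41 tested that met both thresholds applied here, a log2FC beyond 0.32 in either direction with an adjusted p under 0.1. At an adjusted p under 0.05 it was not called. It was higher, while 0 genes were lower in edgeR's and in DESeq2's test. Before adjustment 16 of the 41 had a p under 0.05 in edgeR's test, a larger share than the 18.1% of all genes. All genes include those with few reads, whose part in this was not tested. This 1 gene is 2.44% of the 41, and over all 17452 genes tested 1.57% were called higher and 0.533% lower. By the adjusted p alone, 5 of the 41 were higher (TFEB, CALCOCO2, ULK1, ATG2A and WIPI1) and GLA was lower, against 3.11% higher and 2.81% lower of all genes. These samples are bulk RNA, so fewer cells of a kind and less RNA per cell cannot be told apart.

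TFEB lies on the minus strand of chromosome 6 (41651716 to 41703997 on GRCh37, the build of all gene positions that follow). Its normalized counts were 145, 150.4 and 137 in the 3 libraries of GFP cells with Cyss and 161, 191 and 215 in those without. All libraries without Cyss were above all with Cyss, but they differed among themselves by more than the gap to the controls. The log2FC was 0.39 (standard error 0.112, adjusted p = 0.0832, edgeR). When each library was left out in turn, TFEB missed the thresholds in 5 of the 6 fits and kept its call when GFP without Cyss replicate 1 was dropped. Its log2FC then ranged from 0.28 to 0.50, lowest without GFP without Cyss replicate 3. In NRF2 cells, TFEB had 146, 153 and 145 normalized counts with Cyss and 224, 191 and 210.0 without. The groups did not overlap here either. The log2FC of 0.50 (standard error 0.102, adjusted p = 0.00269, edgeR) was called in all 6 fits with a library left out, with values from 0.44 to 0.56. The interaction, which is the response of NRF2 cells minus that of GFP cells, was 0.11 (standard error 0.151, adjusted p = 0.703, edgeR on 12 libraries). The other MiT factors did not meet the thresholds. TFE3, which shares the TFEB motif, had 1769, 1817 and 1767 normalized counts in the GFP libraries with Cyss and 1674, 1803 and 1769 in those deprived of it, a log2FC of -0.03, and 1873, 1833 and 1955 and 1966, 1955 and 1999 in NRF2 cells, a log2FC of 0.07. The TFE3 libraries of both media overlapped in GFP cells. MITF, known as the melanocyte factor of the family, had 302, 295 and 321 in the GFP libraries with Cyss and 336, 322 and 321 in those deprived of it, a log2FC of 0.10 (adjusted p = 0.470, edgeR). In NRF2 cells MITF had 270.5, 279 and 299 with Cyss and 314, 330.5 and 303 without, and its log2FC was 0.16 (adjusted p = 0.177, edgeR). In both populations the MITF libraries without Cyss lay above those with Cyss, by margins that did not pass the test. Such separation was common over all genes. In GFP cells all 3 libraries without Cyss lay above those with Cyss for 10.8% of all genes tested and below for 13.1%. Of the 42 genes, 12 lay above, a larger share, and 5 below, a smaller one. In NRF2 cells the shares of all genes were 18.7% each way. There 14 of the 42 lay above, a larger share, and 7 below, a smaller one. All genes include those with few reads, and the part of depth in these shares was not tested.

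Among the genes that start autophagy and choose its cargo, CALCOCO2 and ULK1 were higher without Cyss in GFP and in NRF2 cells. CALCOCO2 encodes NDP52, a receptor for damaged mitochondria and bacteria, and lies on chromosome 17 (46908380 to 46943884). It had 2429, 2465 and 2568 normalized counts in the GFP libraries with Cyss and 3218, 2994 and 3068 in those deprived of it. It had 2172, 2380.4 and 2359 in NRF2 cells with Cyss and 2626, 2701 and 2953 without. In both cell populations the libraries without Cyss lay above those with Cyss. The log2FC was 0.3195 in GFP cells (standard error 0.0419, adjusted p = 5.78e-04, edgeR), just under the fold change threshold, and 0.26 (standard error 0.0528, adjusted p = 0.00236, edgeR) in NRF2 cells. It passed the adjusted p threshold in all fits with a library left out, in both populations. ULK1, the kinase that initiates autophagy downstream of mTORC1 and AMPK, lies on chromosome 12 (132379167 to 132407695). It had 1321, 1319 and 1306 normalized counts in the GFP libraries with Cyss and 1594, 1681 and 1583 in those deprived of it, with no overlap. The log2FC was 0.30 (standard error 0.0445, adjusted p = 0.00161, edgeR). In NRF2 cells ULK1 had 1584, 1463 and 1508 with Cyss and 1796, 1723 and 1719.7 without, and its log2FC was 0.21 (standard error 0.0529, adjusted p = 0.0120, edgeR). A difference between the populations was not detected for either gene, with interactions of -0.06 for CALCOCO2 (95% interval -0.20 to 0.09) and -0.10 for ULK1 (95% interval -0.24 to 0.04). The paralogue ULK2 had a negative log2FC in both populations, -0.17 and -0.12, with adjusted p values of 0.183 and 0.193 in edgeR's test. Beclin 1 (BECN1), a subunit of the lipid kinase that makes PI3P, had log2FC values of 0.11 and 0.07, neither past the test.

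For the PI3P effector WIPI1 the log2FC was 0.17 (standard error 0.0498, adjusted p = 0.0958, edgeR) in GFP cells and 0.29 (standard error 0.0595, adjusted p = 0.00285, edgeR) in NRF2 cells. Strands were not separated in the counting, and exons of WIPI1 overlap those of ARSG on the opposite strand. In GFP cells its call by adjusted p was lost in 5 of the 6 fits with a library left out, and that of the lipid transporter ATG2A (log2FC 0.17, adjusted p = 0.0983, edgeR) in all 6. The other members of this role, ATG9A and WIPI2, did not pass the test in either population.

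In NRF2 cells 2 of the 41 genes were called higher without Cyss, TFEB and NPC1, and 1 was called lower, GLA. These are 4.88% and 2.44% of the 41, and all 17266 genes tested gave 6.81% higher and 5.14% lower. By the adjusted p alone 10 of the 41 were higher and 5 lower, against 15.2% and 13.8% of all genes. Of the lysosomal membrane proteins NPC1 was called, which exports cholesterol from the lysosome and is encoded on chromosome 18 (21086148 to 21166470, minus strand). Its normalized counts were 3807, 3784 and 3876 in GFP cells with Cyss, 3919, 3735 and 4269 in GFP cells without, 3855, 3932 and 3801 in NRF2 cells with Cyss and 4623, 4832 and 5219 in NRF2 cells without. All libraries of NRF2 cells without Cyss lay above the other 9, whereas the media overlapped in GFP cells. The log2FC without Cyss was 0.34 (standard error 0.0476, adjusted p = 1.02e-04, edgeR) in NRF2 cells and 0.06 (standard error 0.0482, adjusted p = 0.539, edgeR) in GFP cells. The interaction was 0.28 (standard error 0.0694, adjusted p = 0.0168, edgeR on 12 libraries) and passed in all 12 fits with a library left out, with values from 0.24 to 0.34. In NRF2 cells NPC1 missed the fold change threshold when NRF2 without Cyss replicate 3 was left out (0.31) and with library size as the only scaling (0.28), while its adjusted p passed in both. Exons of NPC1 overlap those of RMC1 on the other strand (C18orf8 in the files), which had a log2FC of 0.17 in NRF2 cells (adjusted p = 0.104, edgeR).

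GLA, the lysosomal alpha-galactosidase A on the minus strand of chromosome X (100648261 to 100663000), went the other way. It had 1089, 1111 and 1126 normalized counts in the GFP libraries with Cyss and 980.2, 990.3 and 970.2 in those deprived of it. It had 1192, 1186 and 1199 in NRF2 cells with Cyss and 805, 984 and 985 without. In both populations all libraries without Cyss were below all with Cyss, and NRF2 without Cyss replicate 1 was the lowest of the 12. The log2FC was -0.17 (standard error 0.0465, adjusted p = 0.0648, edgeR) in GFP cells and -0.36 (standard error 0.0678, adjusted p = 0.00134, edgeR) in NRF2 cells. In GFP cells its call by adjusted p was lost in 5 of the 6 fits with a library left out (log2FC -0.19 to -0.16), held without GFP with Cyss replicate 1, and was lost with all 12 libraries in the fit. Without NRF2 without Cyss replicate 1 it was -0.28 in NRF2 cells, under the fold change threshold with an adjusted p of 9.13e-04 in edgeR's test. The interaction was -0.19 (standard error 0.084, adjusted p = 0.168, edgeR). GLA shares exonic positions with RPL36A on the other strand, whose log2FC was 0.15 in NRF2 cells (adjusted p = 0.263, edgeR).

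The ATG8 family members MAP1LC3B and GABARAP, whose proteins decorate the autophagosome, differed in direction in NRF2 cells. MAP1LC3B (chromosome 16, 87417559 to 87438385) had 3808, 3598 and 3700.5 normalized counts in the GFP libraries with Cyss and 3936, 3913 and 3888 in those deprived of it. In NRF2 cells it had 3420.4, 3505 and 3656 with Cyss and 3896, 4376 and 4492 without. The libraries without Cyss were above those with Cyss in both populations, with the larger gap in NRF2 cells. The log2FC was 0.08 (standard error 0.0378, adjusted p = 0.260, edgeR) in GFP cells and 0.27 (standard error 0.052, adjusted p = 0.00157, edgeR) in NRF2 cells, an interaction of 0.19 (standard error 0.0648, adjusted p = 0.0757, edgeR on 12 libraries). GABARAP (chromosome 17, 7143327 to 7145768, minus strand) had 1109, 1148 and 1074 in GFP cells with Cyss, 1059.7, 1142 and 1131 in GFP cells without, 1139, 1148 and 1059.9 in NRF2 cells with Cyss and 904, 998 and 980.3 in NRF2 cells without. All libraries of NRF2 cells without Cyss were below the other 9, which overlapped one another. The log2FC in NRF2 cells was -0.21 (standard error 0.0585, adjusted p = 0.0174, edgeR), against 0.0045 in GFP cells, an interaction of -0.22 (standard error 0.0763, adjusted p = 0.0832, edgeR on 12 libraries). Exons of GABARAP overlap those of unnamed genes on both strands. GABARAPL2, the third member with enough reads, had log2FC values of -0.0011 and 0.04.
With NPC1, these made 2 of the 41 genes with a higher and 1 with a lower interaction, against 8.97% and 6.13% of all 17674 genes tested. The interactions of MAP1LC3B and GABARAP passed in 3 and 5 of the 12 fits with a library left out. MAP1LC3B2, a nearly identical copy of MAP1LC3B on another chromosome, held 599 to 1042 reads per library, and reads of both genes may have been exchanged or dropped in mapping. Its log2FC in NRF2 cells was 0.22 (adjusted p = 0.0145, edgeR) and its interaction 0.10 (adjusted p = 0.445, edgeR). MAP1LC3B also overlaps FBXO31 on the opposite strand, which had a log2FC without Cyss of 0.15 in NRF2 cells (adjusted p = 0.0813, edgeR), 0.02 in GFP cells (adjusted p = 0.838, edgeR) and an interaction of 0.13 (adjusted p = 0.319, edgeR).

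The remaining genes that passed the adjusted p alone in NRF2 cells came from several roles. ATG7, the enzyme that activates LC3 and ATG12 for conjugation, was higher (log2FC 0.29, standard error 0.0563, adjusted p = 0.00170, edgeR), whereas ATG5, the partner of ATG12, was lower (log2FC -0.15, standard error 0.0503, adjusted p = 0.0403, edgeR), a call lost without NRF2 with Cyss replicate 2 and without replicate 3 of that group. ATP6V1H, a subunit of the proton pump that acidifies the lysosome, was higher (log2FC 0.22, standard error 0.0487, adjusted p = 0.00479, edgeR). The receptors OPTN and NBR1 were higher as well, with log2FC values of 0.18 and 0.14. The call of NBR1 was lost in 3 of the 6 fits with a library left out, and with library size as the only scaling. The plot of log2FC by role shows how small most responses were: the 95% interval of the log2FC lay wholly between -0.32 and 0.32 for 38 of the 41 genes in GFP cells and for 29 in NRF2 cells, against 59.1% and 46.1% of all genes. All genes include those with a mean of only 10 normalized counts, and few reads widen an interval. The part of depth in these shares was not tested. The interval of LAMP1 was -0.04 to 0.10 in GFP cells and -0.09 to 0.10 in NRF2 cells, and that of CTSB 0.0047 to 0.19 and -0.06 to 0.20. The libraries of NRF2 cells without Cyss differed among themselves for CTSB. Replicate 1 had 59712.5 normalized counts, replicate 2 had 67516.9 and replicate 3 had 75840.7.

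**Figure D3:**
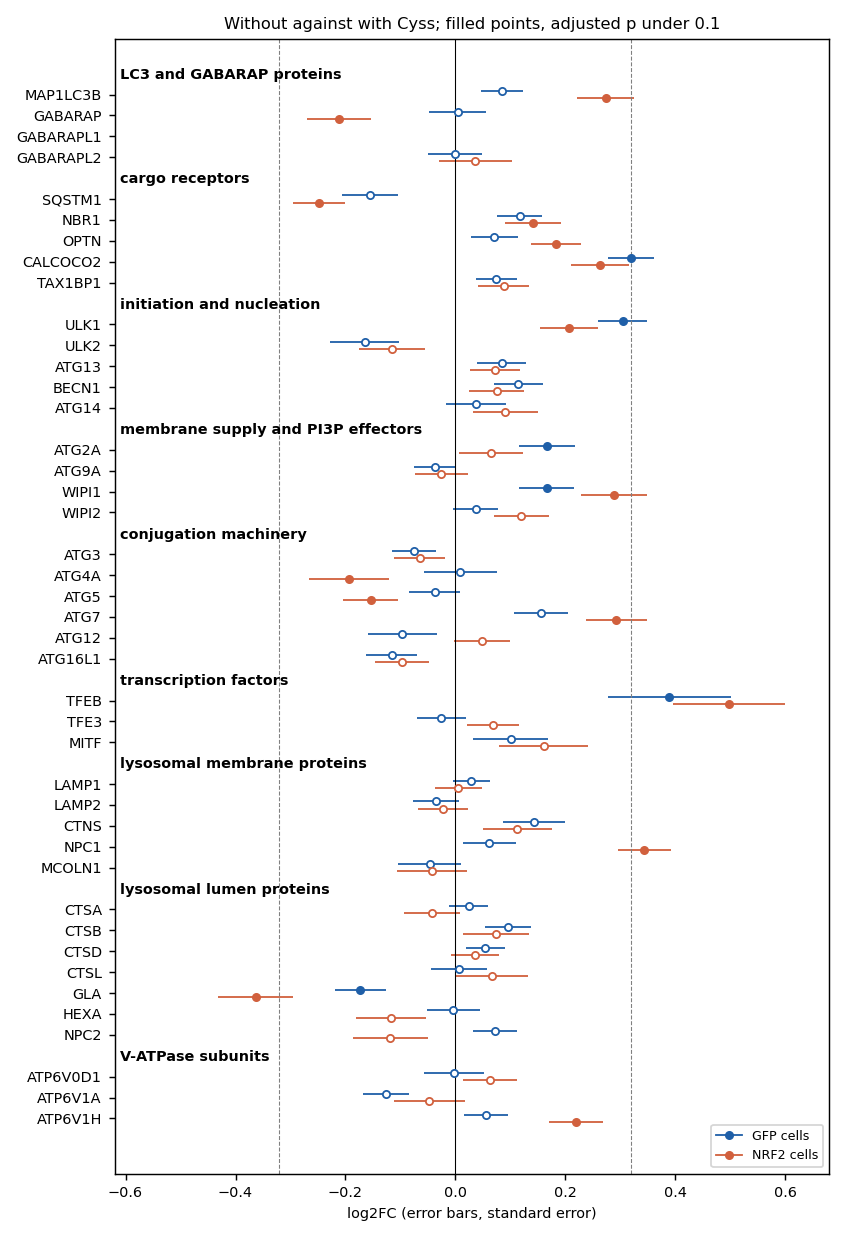
Log2FC without against with Cyss for the genes by role, in GFP cells and in NRF2 cells; bars are standard errors, filled points have an adjusted p under 0.1 and dashed lines mark 0.32. TFEB lies beyond the line in both populations, NPC1 (0.34) and GLA (-0.36) in NRF2 cells, and GABARAPL1 was not tested.

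The autophagy and lysosomal genes were then set side by side. Without Cyss in GFP cells, the 23 autophagy genes tested had a median log2FC of 0.04 and the 15 lysosomal genes 0.02, against 0.0015 for all genes. In NRF2 cells the medians were 0.07 and 0.0053, against -0.01 for all genes. With library size as the only scaling the autophagy median in NRF2 cells was 0.01. All these medians were small beside the threshold of 0.32. The 7 genes with TCACGTG in their promoter, shown above, had log2FC values between -0.08 and 0.05 in GFP cells and between -0.07 and 0.09 in NRF2 cells, and 0 of them passed the adjusted p in either. Of the 9 genes with TGACNNNGC, CALCOCO2 and GLA passed the adjusted p in GFP cells and, with MAP1LC3B, in NRF2 cells, in opposite directions.

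NRF2 and GFP cells were then compared in the same medium. The labels do not say that replicates were separate transductions. An effect of exogenous NRF2 and another difference between the transduced populations therefore cannot be told apart. The words "by NRF2" and "effect of NRF2" stand for the difference of NRF2 from GFP cells. With Cyss, 0 of the 41 genes met both thresholds in either direction, against 1.36% of 17449 genes higher and 0.201% lower. Before adjustment 11 of the 41 had a p under 0.05 in edgeR's test (19% of all genes), and DESeq2's test also called 0. By the adjusted p alone 5 were higher (SQSTM1, ULK1, ATG2A, CTNS and CTSD) and 0 lower, against 4.15% and 2.28% of all genes. Of these 5, the call of ATG2A was lost in 3 of the 6 fits with a library left out, those without NRF2 with Cyss replicate 1 or 3 or GFP with Cyss replicate 3, and that of ULK1 without NRF2 with Cyss replicate 1. All 41 intervals lay between -0.32 and 0.32, as did 62.6% of those of all genes. The set of all genes includes genes with few reads, which widen an interval. With Cyss, all libraries of NRF2 cells lay above those of GFP cells for 10.7% of all genes tested and below for 14.8%. Of the 42 genes, 10 lay above and 7 below. Without Cyss the shares were 18.1% and 19.7%, with 11 of the 42 above and 6 below.

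SQSTM1 (chromosome 5, 179233398 to 179265078) had normalized counts of 8842, 9729 and 8916 in the GFP libraries with Cyss and of 10817, 10479 and 10614 in the NRF2 libraries with Cyss. Without Cyss it had 7791, 8769.9 and 8044 in GFP cells and 8605, 8595 and 9625 in NRF2 cells. NRF2 cells with Cyss held the highest values of the 12 libraries, without overlap, while NRF2 and GFP cells without Cyss overlapped. The effect of NRF2 was a log2FC of 0.23 (standard error 0.04, adjusted p = 0.00391, edgeR) with Cyss and 0.12 (standard error 0.057, adjusted p = 0.143, edgeR) without. The call with Cyss held in all 6 fits with a library left out. Withdrawal of Cyss gave -0.25 (standard error 0.0474, adjusted p = 0.00165, edgeR) in NRF2 cells, also in all 6 fits, and -0.16 (standard error 0.0506, adjusted p = 0.122, edgeR) in GFP cells. The interaction of -0.09 (adjusted p = 0.468, edgeR) did not pass. The log2FC of SQSTM1 without Cyss was negative in both populations, whereas those of the other 4 receptors were positive in both. Its exons overlap those of MGAT4B and MRNIP (C5orf45 in the files) on the other strand. C5orf45 had a log2FC of 0.31 by NRF2 with Cyss (adjusted p = 0.0277, edgeR) and MGAT4B one of 0.11 (adjusted p = 0.154, edgeR), and without Cyss MGAT4B had 0.22 (adjusted p = 0.00944, edgeR).

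Cathepsin D (CTSD), the aspartic protease of the lysosome on chromosome 11 (1773982 to 1785803, minus strand), was higher in NRF2 cells in both media. It had 5292, 5348 and 5282 normalized counts in GFP cells and 6120.4, 5837 and 6175 in NRF2 cells with Cyss. Without Cyss it had 5465, 5609.9 and 5409.9 in GFP cells and 6057, 6165 and 6314 in NRF2 cells. The populations did not overlap in either medium. The log2FC was 0.20 (standard error 0.036, adjusted p = 0.00465, edgeR) with Cyss and 0.17 (standard error 0.043, adjusted p = 0.0170, edgeR) without, and both calls held in every fit that left out a library. CTSD was the gene of the 41 that passed the adjusted p in both media in the same direction. Its promoter holds both motif types, as printed above, but so do those of LAMP1, CTSA and ATP6V0D1, which passed in neither medium. The 9 genes with TGACNNNGC had a median log2FC by NRF2 of 0.04 with Cyss and 0.03 without. Without Cyss 3 of the 9 passed the adjusted p, CTSD as higher and CALCOCO2 and NPC2 as lower. A part of the motifs in these values was not tested. Exons of CTSD overlap those of PRADX and AC068580.1 on the other strand and those of unnamed genes on its own strand. AC068580.6, taken as an overlapping gene, had a log2FC by NRF2 of 0.07 with Cyss (adjusted p = 0.905, edgeR). Without Cyss it had -0.52 (adjusted p = 0.121, edgeR).

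CTNS, the cystine exporter of the lysosome (chromosome 17, 3539753 to 3566397), had 544, 591 and 587 normalized counts in the GFP libraries with Cyss and 628, 631 and 638 in those deprived of it. In NRF2 cells it had 657, 644 and 649 with Cyss and 648, 714 and 740.4 without. The lowest values were those of GFP cells with Cyss, which did not overlap with any other group. The log2FC by NRF2 was 0.19 (standard error 0.0572, adjusted p = 0.0807, edgeR) with Cyss and 0.15 (standard error 0.0628, adjusted p = 0.114, edgeR) without. The call with Cyss was lost in 5 of the 6 fits with a library left out and in DESeq2's test. Withdrawal of Cyss gave 0.14 (standard error 0.057, adjusted p = 0.205, edgeR) in GFP cells and 0.11 (standard error 0.063, adjusted p = 0.228, edgeR) in NRF2 cells, which do not pass. CTNS shares exonic positions with TAX1BP3 on the other strand, whose log2FC was 0.09 by NRF2 with Cyss.

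Without Cyss, 1 of the 41 genes was called lower in NRF2 than in GFP cells, ATG4A, and 0 were called higher, against 4.09% lower and 5.98% higher of 17297 genes. DESeq2's test made the same calls, and 14 of the 41 had an unadjusted p under 0.05 in edgeR's test (34.5% of all genes). By the adjusted p alone 4 were higher (WIPI1, TFE3, NPC1 and CTSD) and 6 lower (GABARAP, CALCOCO2, ATG4A, ATG5, HEXA and NPC2), against 14% and 14.7% of all genes. ATG4A is a protease that trims GABARAP-type proteins for conjugation and lies on chromosome X (107334898 to 107397901). It had 482, 459 and 456 normalized counts in the GFP libraries with Cyss and 502, 462 and 434 in those deprived of it. In NRF2 cells it had 410.0, 438 and 408 with Cyss and 346, 381 and 369 without. NRF2 cells lay below GFP cells in both media, without overlap. The log2FC was -0.35 (standard error 0.0757, adjusted p = 0.00770, edgeR) without Cyss and -0.14 (standard error 0.0629, adjusted p = 0.245, edgeR) with Cyss. The call was lost without NRF2 without Cyss replicate 1 and without GFP without Cyss replicate 1, where the log2FC came to -0.30. Withdrawal of Cyss in NRF2 cells gave -0.19 (standard error 0.0725, adjusted p = 0.0705, edgeR), a value that lost its call in 4 of the 6 fits, and the interaction was -0.20 (standard error 0.0942, adjusted p = 0.191, edgeR).

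For GABARAP, a substrate of ATG4A, the log2FC was -0.21 (standard error 0.059, adjusted p = 0.0268, edgeR) without Cyss. ATG5 had -0.20 (standard error 0.0543, adjusted p = 0.0252, edgeR), and of the other conjugation genes ATG7 had 0.07, ATG3 -0.02, ATG12 0.12 and ATG16L1 -0.03, none of which passed. The call of GABARAP was lost without GFP without Cyss replicate 2, and that of ATG5 without replicate 1 and without replicate 2 of that group. CALCOCO2 was lower by NRF2 without Cyss (log2FC -0.17, standard error 0.0511, adjusted p = 0.0389, edgeR), and its log2FC with Cyss was -0.10. The call without Cyss was lost in 3 of the 6 fits with a library left out, those without NRF2 without Cyss replicate 1 or 2 or GFP without Cyss replicate 1, with log2FC values from -0.21 to -0.13 over the 6. HEXA, a subunit of the lysosomal enzyme beta-hexosaminidase, and the cholesterol carrier NPC2 gave -0.16 (standard error 0.0659, adjusted p = 0.0956, edgeR) and -0.19 (standard error 0.0699, adjusted p = 0.0693, edgeR). The call of HEXA was lost in 5 of the 6 fits with a library left out, in DESeq2's test and with DESeq2's size factors, and that of NPC2 in 4 of the 6. Both values were smallest without NRF2 without Cyss replicate 1, at -0.09 and -0.10. TFE3 was higher by NRF2 without Cyss (log2FC 0.17, standard error 0.05, adjusted p = 0.0286, edgeR), a call lost without GFP without Cyss replicate 1. WIPI1 was higher (log2FC 0.17, standard error 0.0561, adjusted p = 0.0531, edgeR), lost without GFP without Cyss replicate 1 and without replicate 2. NPC1 gave 0.30 (standard error 0.0586, adjusted p = 0.00492, edgeR), against 0.03 with Cyss. For TFEB the log2FC by NRF2 was 0.05 with Cyss (95% interval -0.15 to 0.25) and 0.14 without (95% interval -0.12 to 0.40).

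The medians of the effect of NRF2 lay near 0 for both classes. With Cyss the autophagy genes had a median log2FC of -0.02 and the lysosomal genes 0.04, against -0.0039 for all genes. Without Cyss the values were 0.02 and 0.03, against -0.02 for all genes. The plot of NRF2 effects shows that with Cyss all points lie inside the threshold. The responses to Cyss and the effects of NRF2 share libraries, the GFP libraries without Cyss among them, so a chance deviation in 1 group enters both.

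**Figure D4:**
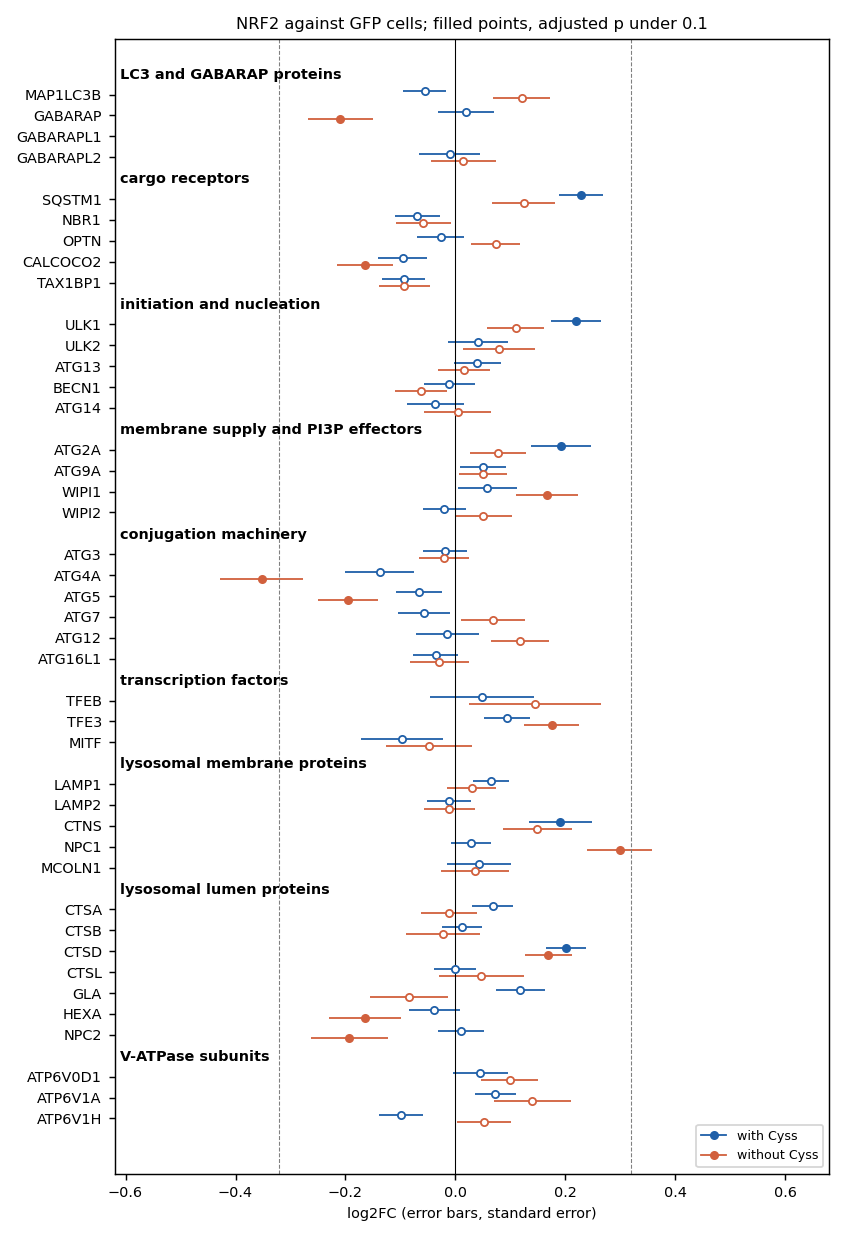
Log2FC of NRF2 against GFP cells for the genes by role, with and without Cyss; bars are standard errors, filled points have an adjusted p under 0.1 and dashed lines mark 0.32. ATG4A without Cyss (-0.35) is the point beyond a dashed line, and CTSD is filled in both media.

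**Figure D5:**
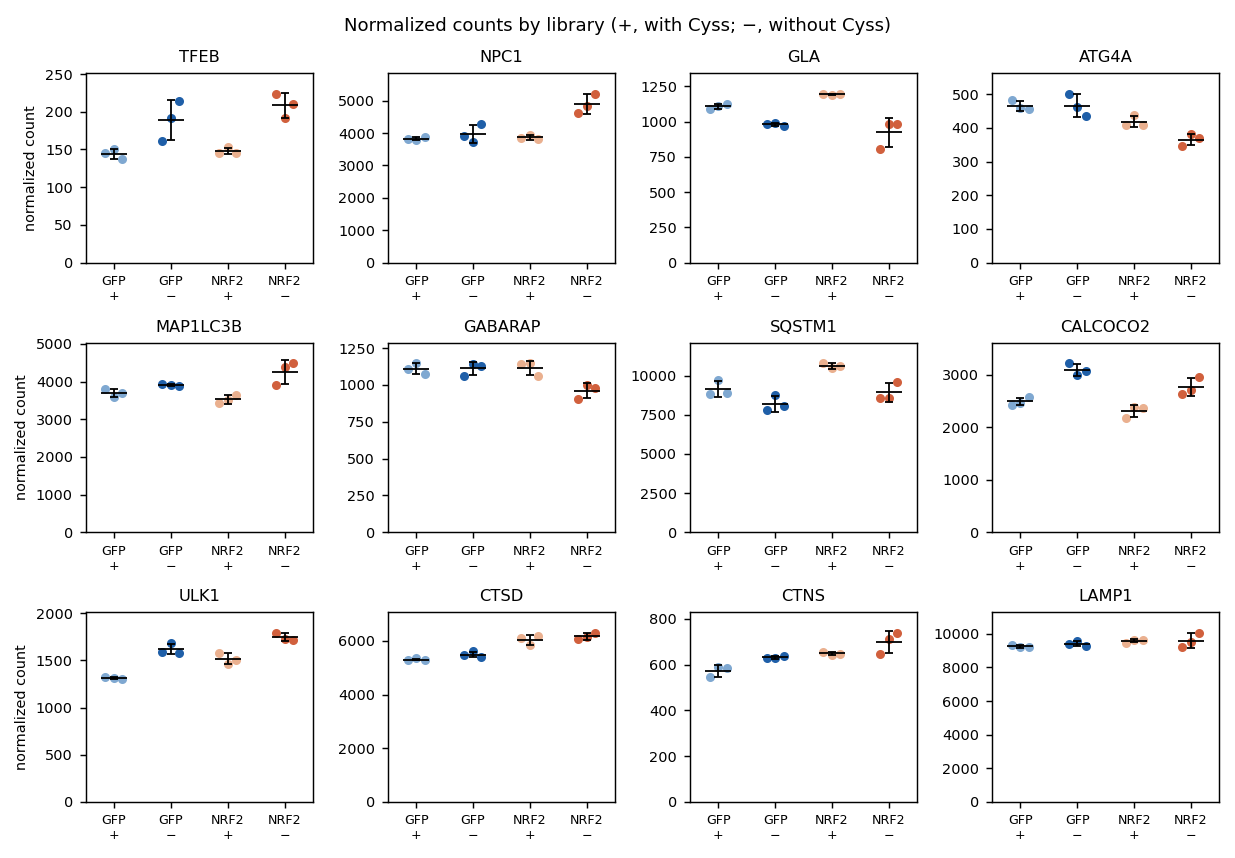
Normalized counts in each of the 12 libraries for the genes described, with axes from 0; points are libraries, bars the mean and error bars the SD of 3 libraries. NPC1 is highest in NRF2 cells without Cyss, GABARAP lowest there, and LAMP1 stays between 9217 and 10079.6 in all groups.

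The normalized counts in the plot of libraries give the same genes as group means. TFEB had 144 ± 6.73 in the GFP group with Cyss, 189 ± 27 in the deprived GFP group, 148 ± 4.16 in the NRF2 group with Cyss and 209 ± 16.5 in the deprived NRF2 group (SD, n = 3 each). NPC1 had 3822 ± 48.1, 3974 ± 271, 3863 ± 65.7 and 4891 ± 302 in the same order (SD, n = 3 each). SQSTM1 had 9162 ± 492, 8202 ± 508, 10636 ± 170.2 and 8942 ± 592 (SD, n = 3 each). The SDs of the groups without Cyss were the larger ones for TFEB and NPC1 in both populations.

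Other genes of the pathways were taken from lists written from general knowledge, but with earlier results of these data known. They are therefore no independent check. Of 41 other autophagy genes, 38 had enough reads to be tested. In GFP cells 0 were called without Cyss by edgeR, against 1.57% of all genes higher and 0.533% lower. By the adjusted p alone 1 passed in each direction, against 3.11% higher and 2.81% lower of all genes. An unadjusted p under 0.05 in edgeR's test was found for 5 of the 38, against 18.1% of all genes. In NRF2 cells 2 were called higher and 0 lower: EPG5, a tether for the fusion of autophagosomes with lysosomes (log2FC 0.48, standard error 0.044, adjusted p = 1.67e-06, edgeR), and the mitophagy receptor BNIP3L (log2FC 0.42, standard error 0.0455, adjusted p = 9.59e-06, edgeR). These are 5.26% of the 38, against 6.81% higher of all genes. ATG16L2 was called higher by NRF2 with Cyss (log2FC 0.36, standard error 0.0868, adjusted p = 0.0303, edgeR), 2.63% of the 38 against 1.36% of all genes. By NRF2 without Cyss 0 were called, against 5.98% of all genes higher and 4.09% lower. There 10 passed the adjusted p alone as higher and 3 as lower, against 14% and 14.7% of all genes. An unadjusted p under 0.05 in edgeR's test was found there for 15, against 34.5% of all genes. The interaction was called higher for 4 (10.5%, against 8.97% of all genes) and lower for 0 (6.13% of all genes), with the smallest adjusted p for EPG5 (0.39) and BNIP3L (0.34).
Of 72 other lysosomal genes, 70 were tested. In GFP cells 0 were called by edgeR, against 1.57% of all genes higher and 0.533% lower. By the adjusted p alone 0 passed as higher and 2 as lower, against 3.11% and 2.81% of all genes. An unadjusted p under 0.05 in edgeR's test was found for 8 of the 70, against 18.1% of all genes. In NRF2 cells, ATP6V0C, a proton pump subunit, was called higher (log2FC 0.36, standard error 0.12, adjusted p = 0.0462, edgeR) and TCIRG1, another subunit, lower (log2FC -0.37, standard error 0.0498, adjusted p = 7.34e-05, edgeR), each 1.43% of the 70 against 6.81% and 5.14% of all genes. NRF2 with Cyss called IDUA, the enzyme iduronidase, higher (log2FC 0.32, standard error 0.0816, adjusted p = 0.0402, edgeR), 1.43% of the 70 against 1.36% of all genes. NRF2 without Cyss called cathepsin S (CTSS) higher (log2FC 0.71, standard error 0.157, adjusted p = 0.00898, edgeR) and the pump subunit ATP6V1E2 lower (log2FC -0.32, standard error 0.111, adjusted p = 0.0575, edgeR), again 1.43% each, against 5.98% and 4.09% of all genes. CTSS was a gene of few reads, with normalized counts of 37.2, 48.4 and 47.1 in the GFP libraries without Cyss and 68.8, 70.6 and 76.6 in the NRF2 libraries without Cyss, which did not overlap. The interaction passed for 4 lysosomal genes as higher (5.71%) and 2 as lower (2.86%), against 8.97% and 6.13% of all genes.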

How the data were processed

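RNA was sequenced from 12 libraries in 4 groups. Per the labels and the study's methods, the authors checked single-end reads with FastQC, mapped them to hg19 with TopHat2 2.1.0 and Bowtie, and counted them on exons with HTSeq 0.11.2 without regard to strand, and they deposited raw counts per gene symbol. The annotation used for counting is not given in the sources used here. Reads not assigned to a gene (15.9 to 17.1% of each file) and 523 rRNA genes (0.254 to 0.303%) were left out, so 55242 genes remained. Positions and exon lengths are from GENCODE 44 on GRCh37.

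Counts of the libraries compared were TMM-scaled, a gene was tested where the mean of either group reached 10, and edgeR 4.0.16 (R 4.3.3) fitted its quasi-likelihood test on these 6 libraries, or on 12 for the interaction, with Benjamini-Hochberg adjustment over all genes tested. Normalized counts printed by library are scaled over all 12. A gene was called where the adjusted p was under 0.1 and the log2FC beyond 0.32 in either direction, and in the interaction by adjusted p alone. These limits stand in the study's plot legends, whereas its methods name an adjusted p under 0.05 from DESeq2. The limit of 0.05 was tried on edgeR's fit, and DESeq2's test was tried at 0.1. The limit of 0.05 was not tried with DESeq2's test. Intervals are at the 95% level. Alternatives were DESeq2 1.42.0 size factors and its Wald test, library size only, other filters and thresholds, all 12 libraries in the fit, a replicate block and leaving out each library. Plots were made with matplotlib 3.10.9 in Python 3.11.15.

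The genes and lists were chosen with earlier results of these data known. By rule, values in every library are given for genes called in any comparison and for SQSTM1, CTNS and the 3 MiT factors, and those for CALCOCO2, ULK1 and CTSD were added after their values were seen. Of the other autophagy and lysosomal genes up to 2 for each list, comparison and direction are named. The scripts were tested on simulated data.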

Additional observations from a re-analysis of the deposited data

Results flagged for a closer look

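Results are listed here because the response to Cyss withdrawal differed between NRF2 and GFP cells by the interaction test (edgeR's quasi-likelihood test on 12 libraries, Benjamini-Hochberg adjustment over all genes tested). Positive values mean a higher log2FC without Cyss in NRF2 than in GFP cells. Among the 42 genes these were NPC1 with 0.283 (adjusted p = 0.0168, edgeR), MAP1LC3B with 0.189 (adjusted p = 0.0757, edgeR) and GABARAP with -0.217 (adjusted p = 0.0832, edgeR). Of the 4 other autophagy genes that passed, all higher, the pair with the smallest adjusted p was EPG5 with 0.389 (adjusted p = 0.00217, edgeR) and BNIP3L with 0.341 (adjusted p = 0.00385, edgeR). Of the other lysosomal genes 4 passed as higher and 2 as lower, and up to 2 in each direction are named by the smallest adjusted p: TCIRG1 with -0.334 (adjusted p = 0.00963, edgeR), IGF2R, the receptor that sorts enzymes to the lysosome, with 0.196 (adjusted p = 0.0361, edgeR), the pump subunit ATP6V0A2 with 0.22 (adjusted p = 0.0706, edgeR) and the sulfatase ARSA with -0.242 (adjusted p = 0.0768, edgeR). NPC1 passed in all 12 fits that left out a library, MAP1LC3B in 3 and GABARAP in 5.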

How the results depend on the processing

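The 39 values of single genes that had passed an adjusted p under 0.1 were taken to other settings, which gave 597 values. Of the 597 values, 487 kept their direction and their side of the threshold, 110 kept their direction but lost the threshold and 0 reversed. The settings with no fold change threshold and with an adjusted p under 0.05 reused the same fit, so no direction could reverse there. With no fold change threshold all 36 values were bound to be kept. Without a fold change threshold, the genes called higher and lower without Cyss numbered 5 and 1 in GFP cells and 10 and 5 in NRF2 cells, and those called by NRF2 were 5 and 0 with Cyss and 4 and 6 without. At an adjusted p under 0.05, 0 were called higher in GFP cells, and the interaction held 1 higher and 0 lower. With filterByExpr 2 were higher in GFP cells, since CALCOCO2 passed 0.32. With library size only, 1 was higher in NRF2 cells, the autophagy median there was 0.0129, and the interaction held 1 higher and 4 lower. With no filter it held 1 higher and 0 lower. With DESeq2's size factors, its Wald test or the replicate block, ATP6V1H joined and the interaction held 3 higher.

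Leaving out each library in turn gave 0 to 1 genes higher in GFP cells, 1 to 4 higher and 0 to 1 lower in NRF2 cells, 0 to 1 higher and 0 to 1 lower by NRF2 without Cyss, and 1 to 3 higher and 0 to 3 lower in the interaction. The autophagy median in GFP cells ranged from 0.0339 to 0.0572. The gene called in GFP cells was CALCOCO2 and not TFEB in the fits that dropped GFP without Cyss replicate 2 or 3 or the third library of GFP cells with Cyss. Without NRF2 without Cyss replicate 1, ATG7 and MAP1LC3B were called in NRF2 cells and GLA was not.

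Replicate numbers are shared between groups, but the labels do not say that they mark a shared culture or day. Deviations of same-numbered libraries correlated between -0.0343 and 0.141, and those of differently numbered libraries between -0.159 and 0.0843. These ranges overlap and do not settle whether the numbers mark pairs. As the labels name no pairing, the numbers were not taken as pairs. With the replicate block, 1 gene was higher in GFP cells and 2 were higher and 1 lower in NRF2 cells, as without it. Depth limits TFEB and MITF most, which have the fewest reads of the genes tested.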
